A study of Mus musculus with 6 samples.

Results

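Carriers that move citrate, dicarboxylates and sulfate through the kidney tubule cell were followed through 6 genes, Slc13a1, Slc13a2, Slc13a3, Slc26a1, Slc25a10 and Slc25a1. They were taken by gene symbol from 34714 genes measured in mouse kidney, and all 6 were found. The set joins 3 genes of the SLC13 family of sodium-coupled carriers with a basolateral anion exchanger and a pair of mitochondrial carriers. The genes were chosen by their role and with the FPKM of knockout against wild-type kidney in view, so this difference is given for them as a description with no test.

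RNA was sequenced from whole kidney of 8-week-old mice on normal chow, 3 samples labelled wild-type (WT) and 3 labelled Hspa8 knockout. Hspa8 encodes HSC70, a constitutive chaperone, and the series asks how it bears on sterol signalling in kidney tubules. The wild-type titles carry C57, and C57BL/6J mice were among those obtained, as were Hspa8flox/flox mice and Cdh16-Cre mice. Cdh16-Cre puts the recombinase under a promoter of tubule epithelium, so other kidney cells keep the gene, and it is known for acting more weakly in the proximal tubule, where most of these carriers work, than further down the nephron. The knockout samples are labelled by the deleted gene alone, and whether wild-type mice carried Cre or the floxed allele is not stated, so these and the knockout cannot be told apart. Neither the sex of the animals is given nor that each sample is its own animal. The p-values below therefore rest on the spread between samples alone, which may be technical. The unit is FPKM, in which fragments are divided by transcript length and by the library total. Where 3 values follow each other they are those of replicates 1, 2 and 3, and errors are SDs over the 3 libraries of a group. FPKM are scaled for comparison between genes and between samples, but their sums still differed between libraries, from 381586 to 417123. Differences between samples therefore depend in part on the scaling. FPKM also keep no read totals, so the depth behind each value is unknown.

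Sodium-coupled carriers of the SLC13 family reclaim filtered anions in the proximal tubule. NaDC1, encoded by Slc13a2, sits in the brush border and takes citrate, succinate and other dicarboxylates back from the filtrate, which helps to set how much citrate is left in urine to bind calcium. NaDC3, encoded by Slc13a3, brings dicarboxylates in from the blood side, and the organic anion transporters exchange one of them, alpha-ketoglutarate, for drugs and urate. Sulfate enters at the brush border through NaS1, encoded by Slc13a1, and leaves through the basolateral exchanger SAT1, encoded by Slc26a1, which also carries oxalate. Inside the cell the mitochondrial inner membrane holds a dicarboxylate carrier, encoded by Slc25a10, and a citrate carrier, encoded by Slc25a1, which exports citrate for fatty acid and sterol synthesis.

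The promoters of the 2 genes whose groups of libraries did not overlap, Slc13a2 and Slc13a3, are shown, each from 250 bases before to 50 bases after a start site, as RefSeq gives them for GRCm38.p6. Capitals mark matches to the letters searched.
Slc13a2, chr11:78422185-78422484, minus strand: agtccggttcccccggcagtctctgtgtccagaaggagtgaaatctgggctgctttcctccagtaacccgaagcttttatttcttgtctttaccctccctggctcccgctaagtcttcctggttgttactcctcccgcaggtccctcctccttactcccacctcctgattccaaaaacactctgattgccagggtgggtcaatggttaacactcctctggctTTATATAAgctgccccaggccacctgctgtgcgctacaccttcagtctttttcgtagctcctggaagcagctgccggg
Slc13a3, chr2:165473148-165473447, minus strand: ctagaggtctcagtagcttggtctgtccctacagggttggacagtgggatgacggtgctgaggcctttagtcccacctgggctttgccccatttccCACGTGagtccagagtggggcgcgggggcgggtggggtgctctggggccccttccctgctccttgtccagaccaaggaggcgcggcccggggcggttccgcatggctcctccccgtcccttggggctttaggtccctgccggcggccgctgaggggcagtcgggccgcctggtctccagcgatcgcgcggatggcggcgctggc
These are unlike in composition. The Slc13a2 promoter had a GC content of 54.3% with 8 CpG dinucleotides and held the letters TATAA on both strands, in matches that overlap and begin at bases 223 and 226 of the run. The Slc13a3 promoter had a GC content of 69.3% with 22 CpG dinucleotides and held the E-box letters CACGTG from base 97. The table held promoters of 5 of the 6 genes, 6 promoters in all since Slc26a1 has 2, and Slc13a1 was not matched. The letters CACGTG and GAANNTTC read the same on either strand. Both strands were searched for TCACNCCAC, the sterol regulatory element that SREBPs bind, for GAANNTTC, the core of a heat shock element, and for GTTAAT, the core of an HNF1 site. Each of these was found in 0 of the 6 promoters, against 1.24%, 7.86% and 7.10% of 32851 promoters of the same length. CACGTG was found in 3 of the 6, those of Slc13a3 and Slc25a1 and 1 of Slc26a1, against 7.15% of all, and TATAA in 3 of the 6, against 24.9% of all. A match is a run of letters and not a measured binding site. In GRCm38.p6 the genes lie on chromosome 6 (Slc13a1, 24088283 to 24168119), chromosome 11 (Slc13a2, 78397276 to 78422281, and Slc25a10, 120491837 to 120501161), chromosome 2 (Slc13a3, 165405295 to 165473197), chromosome 5 (Slc26a1, 108669878 to 108678380) and chromosome 16 (Slc25a1, 17925211 to 17928219), so no 2 of them are neighbours.

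Kidney markers were abundant, as the tissue label says. Slc34a1, the phosphate carrier of that segment, ran from 1474 to 1942 FPKM and the endocytic receptor Lrp2 from 102 to 181 FPKM, while liver albumin (Alb) stayed between 1.43 and 2.62 FPKM. Hspa8 itself stood at 61.4% of its wild-type level in the knockout libraries. All its knockout values lay below the wild-type values, as was so for 8.57% of the 12174 tested genes. Its limma adjusted p was 0.866, so the deleted gene itself did not pass 0.05. Segment markers varied within both groups: relative to their mean over the 6 libraries, the 10 proximal tubule markers averaged, on the log2 scale, 0.17, 0.07 and -0.18 for wild-type and 0.12, -0.21 and 0.03 for knockout replicates. The immediate early and heat shock genes were taken as signs of tissue handling. On the same scale they averaged -1.27, 0.07 and 1.39 for wild-type and -1.71, 0.88 and 0.64 for knockout replicates. Replicate 1 was thus the lowest in both groups. Single genes differed from the average: Fos was lowest in wild-type replicate 1, and Fosb was highest in knockout replicate 2. In whole tissue, fewer cells of a type and less RNA per cell cannot be told apart. With limma on log2(FPKM + 1), 0 of 12174 tested genes passed an adjusted p of 0.05, which is 0% of them, and 629 genes (5.17%) had an unadjusted p under it.

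The apical citrate and dicarboxylate carrier showed the widest separation of the 6. Slc13a2 read 17.9, 22.3 and 21.5 FPKM in the wild-type libraries, against 30.5, 30.7 and 28.9 FPKM in the knockouts. Every knockout value lay above every wild-type value, and the knockout libraries lay within 2 FPKM of each other. The means were 20.6 ± 2.32 and 30.05 ± 0.992 FPKM (SD, n = 3), a ratio of 1.46. The log2 difference was 0.53 with a standard error of 0.0996. Slc13a2 was also divided by the geometric mean of the proximal tubule markers in the same library. It then ran from 0.105 to 0.133 in the knockout libraries, against 0.0613 to 0.0924 in the wild-type libraries. The log2 difference was then 0.57, with a wider standard error of 0.190.

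An antisense gene lies across Slc13a2. Slc13a2os shares 632 exonic bases with it on the opposite strand in GENCODE M21, and no source used here says whether the counting used strand. Slc13a2os read 0.399, 0.514 and 0.419 FPKM in the wild-type libraries, against 0.437, 0.790 and 0.763 FPKM in the knockouts. It was thus higher in knockout replicates 2 and 3, while knockout replicate 1, with 30.5 FPKM of Slc13a2, lay within its wild-type range. Within the shared bases, reads of the 2 genes cannot be told apart without strand.

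The basolateral dicarboxylate carrier was the most abundant of the 6 and was also higher in each knockout library. Slc13a3 read 209, 195 and 188 FPKM in the wild-type libraries, against 239, 211 and 242 FPKM in the knockouts. Knockout replicate 2 lay only just above wild-type replicate 1, and the other knockout libraries stood clear. The means were 197 ± 10.4 and 231 ± 17.0 FPKM (SD, n = 3), a ratio of 1.17, and the log2 difference was 0.22 with a standard error of 0.0946. Relative to the proximal tubule markers the groups did not overlap, from 0.679 to 0.779 in wild-type and from 0.801 to 0.891 in knockout libraries. The log2 difference was then 0.26, with a wider standard error of 0.164. The antisense gene Gm14437 lies within Slc13a3 but shares 0 exonic bases with it.

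**Figure D1:**
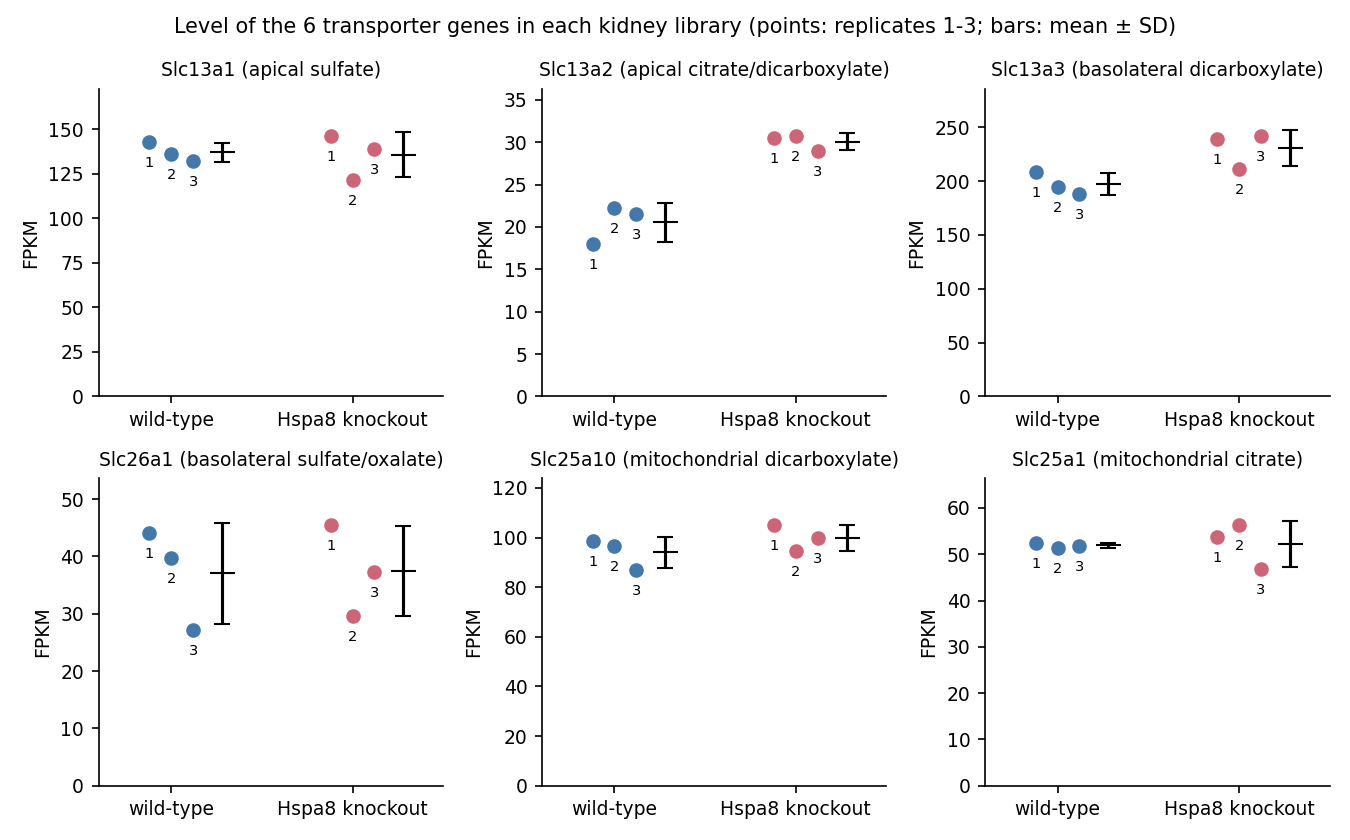
FPKM of the 6 transporter genes in each kidney library, wild-type in blue and Hspa8 knockout in red, with the replicate number under each point and the mean ± SD (n = 3) as a bar beside it. The knockout points lie above the wild-type points for Slc13a2 (28.9 to 30.7 against 17.9 to 22.3 FPKM) and Slc13a3 (211 to 242 against 188 to 209 FPKM), and the groups overlap for the other 4 genes.

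The apical sulfate carrier was abundant and similar in both groups. Slc13a1 read 143, 136 and 132 FPKM in the wild-type libraries, against 146, 122 and 139 FPKM in the knockouts. Knockout libraries held both the highest and the lowest value. The means were 137 ± 5.46 and 136 ± 12.7 FPKM (SD, n = 3), and the log2 difference was -0.02 (SE 0.0972). The sign turned under 6 alternatives, among them equalised library sums (0.03) and the omission of knockout replicate 2 (0.06). The ratio of apical sulfate carrier to apical citrate carrier was lower in the knockout libraries: Slc13a1 over Slc13a2 was 7.97, 6.12 and 6.15 for wild-type and 4.80, 3.96 and 4.81 for knockout libraries. The ratio of Slc13a3 to Slc13a2 was also lower, from 8.73 to 11.6 in wild-type and from 6.87 to 8.37 in knockout libraries, so the 3 SLC13 genes did not differ between the groups in proportion.

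The basolateral sulfate and oxalate exchanger varied most within groups, relative to its level. Slc26a1 read 44.2, 39.8 and 27.2 FPKM in the wild-type libraries, against 45.5, 29.7 and 37.3 FPKM in the knockouts. Wild-type replicate 3 and knockout replicate 2 were low, and these are also the libraries lowest in proximal tubule markers. The means were 37.1 ± 8.79 and 37.5 ± 7.89 FPKM (SD, n = 3), and the log2 difference was 0.02 (SE 0.203). Divided by the proximal tubule markers, its values narrowed to between 0.116 and 0.155 over the 6 libraries. The log2 difference became -0.18 without wild-type replicate 3, -0.12 without knockout replicate 1 and 0.18 without knockout replicate 2. Slc26a1 shares 141 exonic bases with Idua, a lysosomal enzyme gene on the opposite strand, which averaged 3.09 ± 0.695 FPKM in the wild-type libraries, against 3.09 ± 0.529 FPKM in the knockouts and was highest in those same 2 libraries.

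Neither mitochondrial carrier separated the groups. Slc25a10, the dicarboxylate carrier, read 98.6, 96.4 and 87.0 FPKM in the wild-type libraries, against 105, 94.7 and 99.9 FPKM in the knockouts. Its means were 94.0 ± 6.12 and 99.9 ± 5.15 FPKM (SD, n = 3), and the log2 difference of 0.09 was smaller than its standard error of 0.0898. Gm11788, an antisense gene that shares 228 exonic bases with Slc25a10, was not found by that symbol among the genes measured. Slc25a1, the citrate carrier, read 52.5, 51.4 and 51.8 FPKM in the wild-type libraries, against 53.8, 56.3 and 46.7 FPKM in the knockouts. The wild-type libraries were nearly equal and the knockout libraries fell on both sides of them. The means were 51.9 ± 0.587 and 52.3 ± 4.96 FPKM (SD, n = 3), and the log2 difference was 0.01 (SE 0.0930). Its sign turned under 4 alternatives, all of which leave out libraries (to -0.05 with both wild-type replicate 3 and knockout replicate 2 omitted).

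Over the 6 genes, every knockout library exceeded every wild-type library for 2, Slc13a2 and Slc13a3, and lay below every wild-type library for 0, as was so for 2.01% and 8.57% of the 12174 tested genes. Since this contrast chose the genes, nothing is read from that count. The median log2 difference of the 6 was 0.05 beside -0.04 over all tested genes, and leaving out any 1 library moved it by over 1.5 times. It was 0.141, 0.0964 and 0.0189 without wild-type replicate 1, 2 or 3, and 0.0171, 0.150 and 0.0845 without knockout replicate 1, 2 or 3. It was 0.0988 with library sums equalised, 0.111 with library medians equalised and 0.0897 relative to the proximal tubule markers.

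The order of abundance was Slc13a3, Slc13a1, Slc25a10, Slc25a1, Slc26a1 and Slc13a2, with means over all libraries of 214, 136, 96.9, 52.1, 37.3 and 25.3 FPKM. The carriers that face the blood and the filtrate for dicarboxylates thus stood at opposite ends. The ranges of neighbours were apart from Slc13a3 down to Slc26a1, although the lowest Slc25a1 value, 46.7 FPKM, was close to the highest of Slc26a1, 45.5 FPKM. Slc26a1 and Slc13a2 overlapped: Slc26a1 was the higher in 5 of 6 libraries, and in knockout replicate 2 it was the lower, at 29.7 against 30.7 FPKM. The most variable gene over the 6 libraries was Slc13a2, with a coefficient of variation of 21.5%, followed by Slc26a1 with 20.0%. Those of Slc25a1, Slc25a10, Slc13a1 and Slc13a3 were 6.08%, 6.18%, 6.41% and 10.4%.

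**Figure D2:**
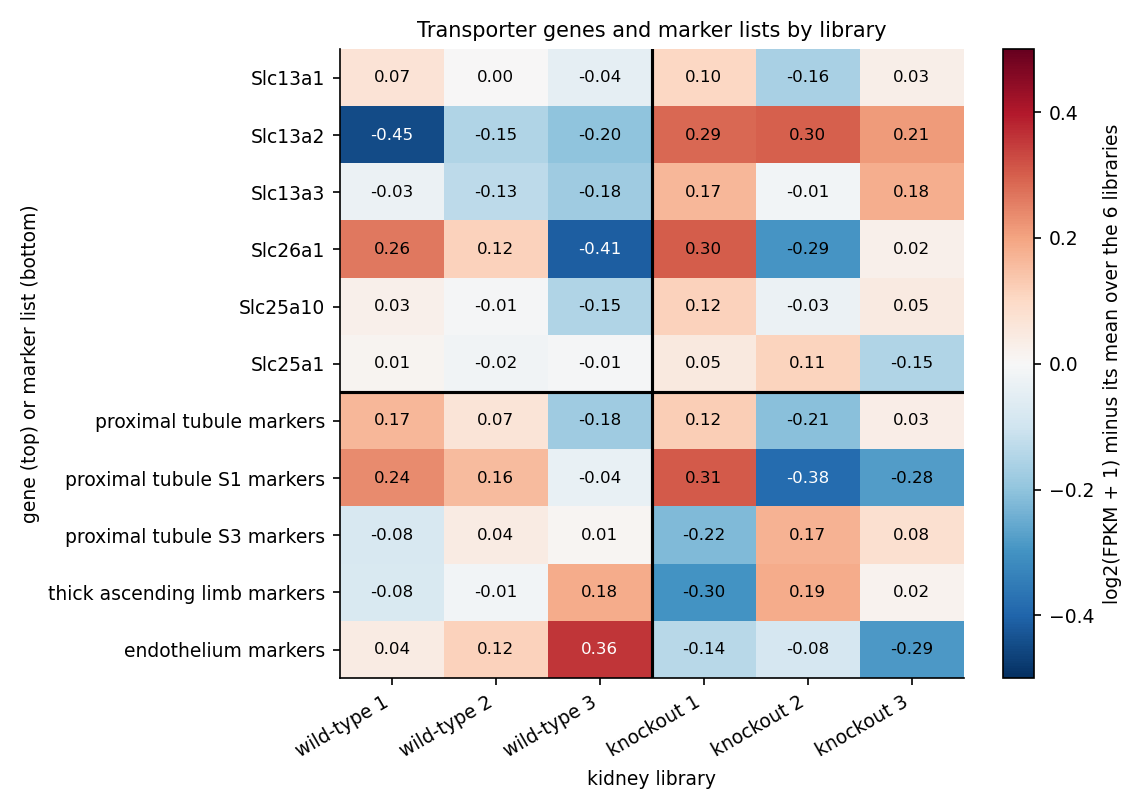
Log2(FPKM + 1) minus its mean over the 6 libraries, for each transporter gene (upper rows) and for the average of 5 marker lists (lower rows), with libraries in columns, wild-type on the left. Slc26a1 is low in wild-type replicate 3 (-0.41) and knockout replicate 2 (-0.29), where the proximal tubule markers are low (-0.18 and -0.21), while Slc13a2 is high in all 3 knockout columns (0.21 to 0.30).

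Other marker lists varied beside these differences. The 4 markers of the first proximal segment, S1, averaged 0.24, 0.16 and -0.04 for wild-type and 0.31, -0.38 and -0.28 for knockout libraries, and the 4 markers of the last, S3, -0.08, 0.04 and 0.01 and then -0.22, 0.17 and 0.08. Knockout replicate 1 thus stood highest for S1 and lowest for S3. Endothelial markers were lower in the knockout libraries: 6 of 6 had a log2 difference below 0, 4 of them with all knockout values below the wild-type values, 6 had an unadjusted p under 0.05 and 0 an adjusted one with limma. Over all 12174 tested genes 7896 lay below 0, 8.57% had all knockout values below and 5.17% had such an unadjusted p. The summed level of the endothelial markers ran from 63.5 to 82.2 FPKM in wild-type and from 49.5 to 59.6 FPKM in knockout libraries. Fibroblast and matrix markers also had 6 of 6 below 0, 2 of them with no overlap. Leukocyte markers had 6 of 6 below 0, 1 with no overlap, though knockout replicate 2 was high for these (0.30). Podocyte markers had 4 of 4 below 0, with a median of -0.30 and 0 without overlap. Red cell transcripts were higher, with all 4 tested genes above the wild-type values in every knockout library and a summed level of 43.3 to 53.4 FPKM against 413, 69.4 and 545 FPKM. All 4 adipocyte markers were highest in wild-type replicate 3, where Adipoq reached 2.30, Plin1 0.562, Cidec 1.17 and Fabp4, which endothelium also expresses, 59.3 FPKM. Fabp4 made up most of their summed level, which was 31.0, 33.4 and 63.3 FPKM in wild-type against 22.8, 38.4 and 29.1 FPKM in knockout libraries. The part of these other cells in the Slc13a2 and Slc13a3 differences was not tested.

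For the transporters, genes of most similar profile were sought among 7926 genes of at least 5 FPKM, by the root mean square difference between log2(FPKM + 1) values centred on their mean over the 6 libraries. Slc13a2 had no close companion: the nearest were Dennd3, an exchange factor for Rab GTPases, at 0.126 and Lipe, hormone-sensitive lipase, at 0.130, against a spread of Slc13a2 itself of 0.283, and 373 genes lay within 2 times the smallest distance. Lipe read 4.02, 5.51 and 5.37 FPKM in the wild-type libraries, against 6.97, 6.23 and 5.75 FPKM in the knockouts. The nearest to Slc13a3 were Chdh, the mitochondrial choline dehydrogenase, at 0.0491 and Rcor3, a transcriptional corepressor, at 0.0503, with 204 genes within 2 times that distance. Slc26a1 was followed closely by Habp2, a secreted serine protease, at 0.0327 and by the zinc finger gene Zfp697 at 0.0535, with 7 genes within 2 times. Habp2 read 61.6, 54.4 and 38.3 FPKM in the wild-type libraries, against 61.2, 40.5 and 53.9 FPKM in the knockouts, the same low libraries as Slc26a1. Trrap was nearest to Slc13a1 (0.0159). Fads2, a fatty acid desaturase, and Abcb10 were nearest to Slc25a10 (0.0151 and 0.0223). Mlycd, malonyl-CoA decarboxylase, and Haus7 were nearest to Slc25a1 (0.0147 and 0.0216). The spreads of Slc13a1, Slc25a10 and Slc25a1 themselves were only 0.0857, 0.0818 and 0.0799, beside 0.136 for Slc13a3 and 0.269 for Slc26a1. Distances of genes that vary little are small for that reason too. Among 7926 genes over 6 libraries some profiles can come close by chance, and likeness was not tested.

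Genes that work with these carriers were taken from 7 lists of 62 genes, of which 59 were tested, and none of them passed. In limma over all 12174 genes 0 rose and 0 fell at an adjusted p of 0.05, beside 0% of all genes, and 1 had an unadjusted p under 0.05. The median log2 fold change of the 59 was 0.04, with 35 above 0 and 24 below, beside -0.04 and 35.1% above 0 over all tested genes. Every knockout library exceeded every wild-type library for 4 (2.01% of all genes did so), Slc13a4, Slc26a6, Suclg1 and Slc25a22, and lay below for 0 (8.57% of all genes). The 4 were singled out for this separation after their values were seen. Slc13a4 and Slc26a6 are also named by the rule for named genes, while Suclg1 and Slc25a22 are not. Equalising the library medians turned the sign of Papss2 (to 0.04), Mdh1 (0.01), Slc25a3 (0.03) and Hnf4a (0.01) among the genes named below.

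The other SLC13 genes were scarce in kidney. Slc13a4, a sulfate carrier best known from placenta, read 2.17, 2.21 and 2.05 FPKM in the wild-type libraries, against 2.86, 2.29 and 2.45 FPKM in the knockouts, log2 fold change 0.17, standard error 0.0962 (limma adjusted p = 0.988). Slc13a5, the citrate carrier of liver and brain, averaged 0.436 ± 0.0593 FPKM in the wild-type libraries, against 0.447 ± 0.123 FPKM in the knockouts and lay under the mean of 1 FPKM needed for the test.

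Anion exchangers of the SLC26 family split in direction, with 2 of 4 tested genes above 0 and 2 below. Slc26a6, an apical oxalate and chloride exchanger that is known to interact with NaDC1, read 3.25, 3.01 and 3.48 FPKM in the wild-type libraries, against 3.78, 3.69 and 3.68 FPKM in the knockouts (log2 fold change 0.15, limma adjusted p = 0.973). Its groups did not overlap, and the difference was smaller than that of Slc13a2. Slc26a2, a sulfate carrier important in cartilage, averaged 1.21 ± 0.538 FPKM in the wild-type libraries, against 1.68 ± 0.497 FPKM in the knockouts. Slc26a4, the chloride and bicarbonate exchanger pendrin of intercalated cells, and Slc26a11 had log2 fold changes of -0.12 and -0.10.

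Sulfate that enters the cell is activated to PAPS before transfer, and sulfur from cysteine is oxidised back to sulfate. Of the 12 tested genes of these steps 5 lay above 0 and 7 below, with a median log2 fold change of -0.02, and 0 had groups that did not overlap. Papss2, which makes PAPS, averaged 89.2 ± 3.99 FPKM in the wild-type libraries, against 88.0 ± 2.86 FPKM in the knockouts. Bpnt1, a phosphatase that clears the by-product of sulfate transfer, read 139.6, 115 and 75.0 FPKM in the wild-type libraries, against 123, 101 and 129.9 FPKM in the knockouts, and wild-type replicate 3 was its lowest library as it was for Slc26a1. Ethe1, a sulfur dioxygenase of mitochondria, and Cdo1, cysteine dioxygenase, had log2 fold changes of -0.08 and -0.11.

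Enzymes that make or use citrate and dicarboxylates had 11 of 15 tested genes above 0 and 4 below, with a median log2 fold change of 0.05. Pck1, the gluconeogenic enzyme that draws on dicarboxylates, varied from 655 FPKM in wild-type replicate 1 to 1227 FPKM in wild-type replicate 3, more than between the group means. The malate dehydrogenases Mdh1 and Mdh2 had log2 fold changes of -0.04 and -0.06. Suclg1, a subunit of succinyl-CoA ligase, read 194, 191 and 167 FPKM in the wild-type libraries, against 197, 207 and 199 FPKM in the knockouts, close but with no overlap (limma adjusted p = 0.998).

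Among the other mitochondrial carriers 8 of 12 tested genes lay above 0 and 4 below, with a median of 0.06. The abundant ones differed little: the log2 fold changes were -0.02 for the phosphate carrier Slc25a3, -0.13 and -0.10 for the pyruvate carrier subunits Mpc1 and Mpc2, and 0.05 for the oxoglutarate carrier Slc25a11. Slc25a22, a glutamate carrier, read 8.37, 9.57 and 9.33 FPKM in the wild-type libraries, against 12.2, 10.6 and 10.6 FPKM in the knockouts, which is 0.26 ± 0.0930 (SE) as a log2 fold change. It was the 1 gene of the 59 with an unadjusted p under 0.05, and its limma adjusted p was 0.941. The highest log2 fold changes of the list, also picked out after their values were seen, were 0.48 (SE 0.232) for the uncoupling protein Ucp2 and 0.35 (SE 0.179) for Slc25a30, and both overlapped between the groups.

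The list of organic anion exchangers and the sodium pump had 4 of 7 tested genes above 0 and 3 below and a median of 0.07. Some of these genes, though not all, use or supply the gradients that NaDC3 works with. Slc22a12, the urate exchanger URAT1, ranged from 755 to 895 FPKM in the wild-type libraries and from 826 to 892 FPKM in the knockouts. Atp1b1 and Fxyd2, which belong to the pump, had log2 fold changes of 0.07 and -0.11. Slc22a6, the exchanger OAT1 that takes drugs in against alpha-ketoglutarate, was looked at as the direct partner of Slc13a3 after its values were seen. It read 276, 243 and 213 FPKM in the wild-type libraries, against 305, 263 and 319.8 FPKM in the knockouts, where knockout replicate 2 lay below wild-type replicate 1 (log2 fold change 0.28, limma adjusted p = 0.971).

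Transcription factors of the proximal tubule had 4 of 8 tested genes above 0 and 4 below, with a median of -0.0027. Hnf4a, a nuclear receptor that sets proximal tubule identity, averaged 184 ± 17.6 FPKM in the wild-type libraries, against 179 ± 21.1 FPKM in the knockouts. Nr1h4, the bile acid receptor FXR, and Vdr, the vitamin D receptor, had log2 fold changes of -0.09 and 0.04, each smaller than its standard error (0.102 and 0.0989).

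**Figure D3:**
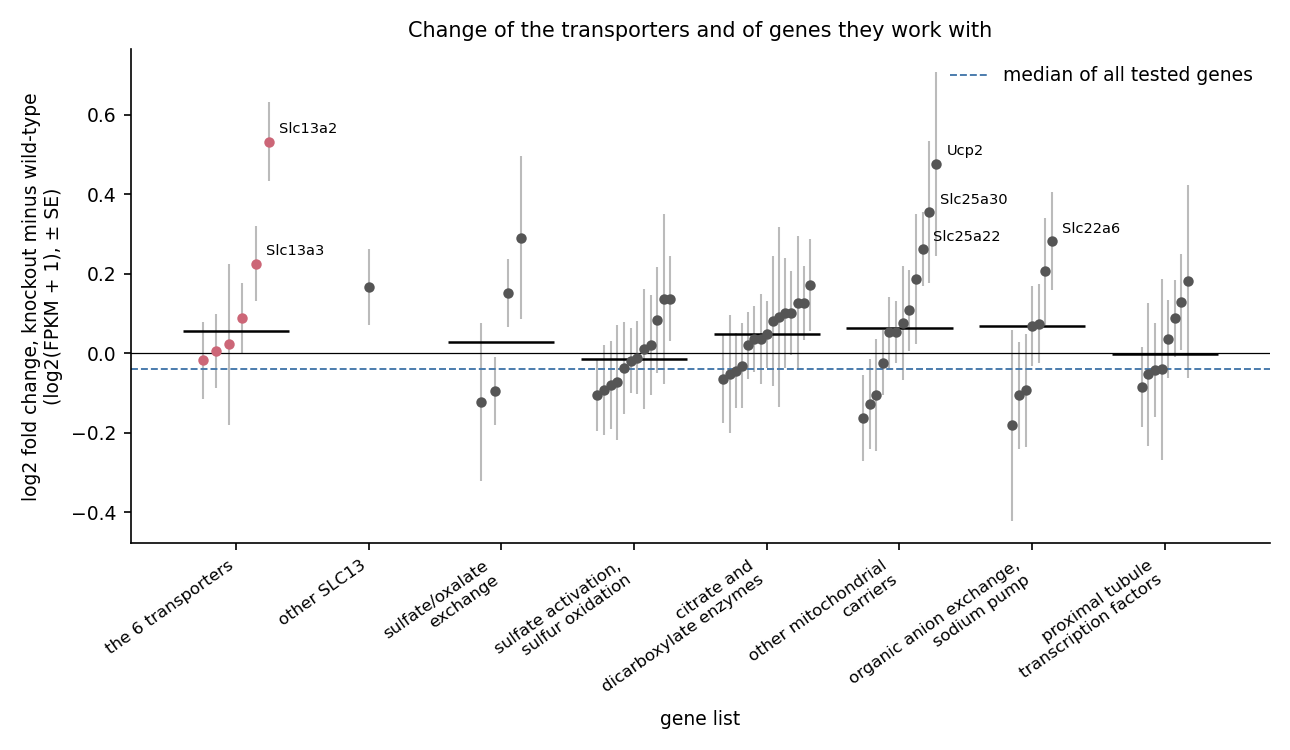
Log2 fold change (knockout minus wild-type, on log2(FPKM + 1), ± SE) of each tested gene, with the 6 transporters in red and 7 lists of related genes in grey, a black bar at the median of each list with over 1 tested gene and a dashed line at the median of all 12174 tested genes (-0.04). Slc13a2 has the highest value shown (0.53), and none of the 59 related genes passed the adjusted test.

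**Figure D4:**
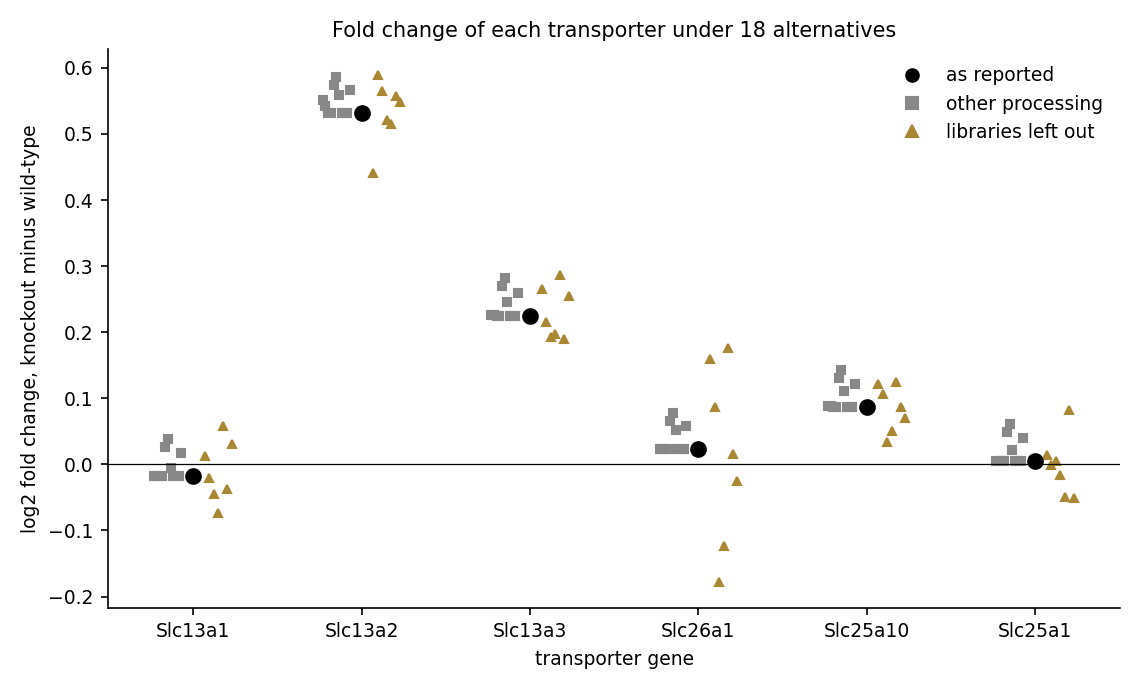
Log2 fold change of each transporter gene as reported (black), under other ways of processing (grey squares) and with 1 or 2 libraries left out (triangles), 18 alternatives in all. Slc13a2 (0.44 to 0.59) and Slc13a3 (0.19 to 0.29) stay above 0 throughout, Slc25a10 runs from 0.03 to 0.14, and Slc13a1, Slc26a1 and Slc25a1 cross 0. For Slc13a2 and Slc13a3, whose groups do not overlap, leaving out libraries could not turn the sign.

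Slc13a2 and Slc13a3 kept a positive difference in all 18. Slc13a2 was lowest at 0.44 without wild-type replicate 1, and Slc13a3 at 0.19 without knockout replicate 3. Their groups did not overlap, so leaving out libraries could not turn these signs. Adding a replicate block or changing the filter or the variance model left the differences themselves unchanged. Slc25a10 was also above 0 in all 18, at 0.03 without wild-type replicate 3. The sign of Slc13a1 held in 12 of 18, that of Slc26a1 in 15 and that of Slc25a1 in 14.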

How the data were processed

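FPKM were deposited by the authors in 1 table for all libraries, scaled by transcript length and library size. Builds are GRCm38 and mm10, 2 names of 1 assembly, per the submitters' processing notes. No source used here gives the aligner, quantifier, annotation or strand setting. Columns were matched to samples by title: the wild-type columns carry C57 and the knockout columns A8, the end of HSPA8, with the replicate number. Library sums of FPKM ran from 381586 to 417123. Steps left by whole reads were sought in genes under 0.1 FPKM, and no ratio between 2 libraries held over 0.625% of them, so no counts were recovered and no interval that needs depth is given. No gene held the same value above 0 in 2 libraries.

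Genes with a mean of at least 1 FPKM (12174 of 34714) were compared on the scale log2(FPKM + 1) by limma (3.58.1, R 4.3.3) fitting the 2 groups without other terms. The variance followed a mean trend, tests were two-sided, and p-values were adjusted by Benjamini-Hochberg over all of these genes at 0.05. The fit was tested on simulated data, with noise drawn independently for each gene and library. Deviations that libraries share over many genes were not simulated, so the test does not cover them. Fold changes on this scale understate those of low genes. The named genes were the 6 transporters, the other SLC13 genes, the 4 most abundant tested genes of each related list and the 2 most similar genes of each transporter; others are said to be chosen after seeing values. Values of some genes under this rule are left out here, while list counts and medians include them. The members and lists were chosen with earlier results of these data known. Gene positions and promoters are RefSeq's for GRCm38.p6, where all 34714 symbols matched; overlaps are from GENCODE M21. Impad1 and Sqrdl, older names, were matched as Bpnt2 and Sqor. Figures were drawn with matplotlib 3.10.9. Alternatives changed the pseudocount, the filter, the scaling, the variance model, a replicate block, the libraries and the reference to proximal tubule markers.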

Additional observations from a re-analysis of the deposited data

How the results depend on the processing

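The count of genes that limma called stayed at 0 under other pseudocounts, filters, scalings and variance models. Leaving out 1 library gave 0 to 5 genes, the 5 without knockout replicate 2, and leaving out wild-type replicate 3 with knockout replicate 2 also gave 5, in both cases globin genes. Of the related genes 0 were called under any alternative. The median log2 difference of the transporters ran from 0.0171 to 0.150 when 1 library was left out, the latter without knockout replicate 2. With the replicate number as a block the count was 0 for all genes and 0 for the related genes, and the transporter median stayed at 0.0549. Libraries numbered 1 deviated together and those numbered 2 and 3 did not (correlations of 0.307, -0.215 and -0.321 over genes). The highest correlation between the groups was 0.550, of wild-type replicate 3 with knockout replicate 2. The lowest was -0.489, of wild-type replicate 1 with knockout replicate 2. Not every library correlated best with its own number, so the numbers were not taken as pairs. Equalising library medians moved the median of all genes by 0.0494 at most. Depth is unknown from FPKM, so no counting error stands beside any value.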
